A study of Homo sapiens with 12 samples.

Results

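The gene set described here is EMP1 with its tetraspan relatives EMP2, EMP3 and PMP22, and the oxidase gene NOX4 with CYBA, the gene of its membrane partner. The 6 genes were chosen by name, because the study proposed a route in which TAZ acts on ferroptosis through EMP1 and NOX4. Of the 6, 5 were matched to probe sets (7 in all), out of 11963 genes and 19064 probe sets tested. PMP22 was not matched and was not analysed here; it was listed on 0 probe sets, those listed under several genes included, and unnamed probe sets were not used. RNA came from RCC4, an established clear cell renal carcinoma line, on 12 Affymetrix 3′ arrays. Cells received an siRNA against WWTR1, the gene of the Hippo coactivator TAZ (siTAZ), or a non-targeting siRNA (siNT), for 2 days, and then erastin at 1 µM or its vehicle DMSO for 7 hours. Erastin blocks cystine import and can trigger ferroptosis, a death by lipid peroxidation. The 4 groups were siTAZ with DMSO, siNT with DMSO, siTAZ with erastin and siNT with erastin, with 3 arrays each, described by the submitters as biological triplicates. All groups share the same single cell line and the transfection, and no untransfected group was analysed here.

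EMP1, EMP2, EMP3 and PMP22 encode small glycoproteins that cross the membrane repeatedly and belong to the same family as PMP22 of peripheral myelin. They are known for roles in cell contacts, adhesion and membrane traffic. NOX4 is an NADPH oxidase that releases mainly hydrogen peroxide, was first described as a kidney oxidase, and is thought to be controlled largely by how much of it is made. It needs the small membrane subunit encoded by CYBA for stability and activity.

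Signals are the deposited log2 values of probe sets, and a difference of 1 is a doubling of signal. No detection calls were used, so a background limit was set at 5.83, the 90th percentile of the 12-array means of 42 probe sets for 30 genes restricted to other tissues (median 4.45). A value at or below it is called near background, as were 40.1% of all probe sets tested. A probe set was called changed where limma's p, adjusted by Benjamini-Hochberg across the 19064 probe sets, was under 0.05. Because 3 arrays against 3 cannot give an exact permutation p under 0.1, limma's shared spread carries the tests, and the number of arrays limits the precision. In bulk RNA, fewer cells that express a gene and less RNA per cell cannot be told apart.

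The silencing was visible in every array. The brightest WWTR1 probe set read 9.46, 9.31 and 9.26 in siTAZ DMSO arrays, against 12.33, 12.29 and 12.24 in siNT DMSO arrays, and 9.10, 9.09 and 9.25 in siTAZ erastin arrays, against 12.35, 12.19 and 12.27 in siNT erastin arrays. YAP1, the gene of the paralogous coactivator, differed by -0.02 ± 0.07 in DMSO and -0.01 ± 0.07 under erastin (log2, SE; limma adjusted p of 0.909 in DMSO). Of 10 measured markers of renal carcinoma lines, all 10 were above the background limit, and 9 of 9 leukocyte, 4 of 5 erythroid, 6 of 7 endothelial and 7 of 8 fibroblast markers were near background. Of the myelin markers MBP, SOX10, PRX and MAG, only MAG was near background, and the median of the 4 was 6.05. The control probe sets for both ends of actin mRNA differed by 3.25 ± 0.33 in siTAZ erastin arrays and 2.26 ± 0.69 in siNT erastin arrays, and by 2.65 ± 0.04 in siTAZ DMSO arrays and 2.68 ± 0.28 in siNT DMSO arrays (log2, 3′ minus 5′, SD, n = 3). The siNT erastin arrays read 2.82, 2.47 and 1.49 for actin. For GAPDH mRNA the same difference was 0.20 ± 0.06 in siTAZ erastin arrays and 0.15 ± 0.08 in siNT erastin arrays. With DMSO it was 0.20 ± 0.07 in siTAZ arrays and 0.18 ± 0.07 in siNT arrays (SD, n = 3). The part of the actin gap in the erastin results was not tested except by a fit with it as a covariate.

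EMP1 was the member that fell, and the measured fall was of nearly the same size with and without erastin. Its brightest probe set, 201324_at, read 5.88, 6.11 and 6.01 in siTAZ DMSO arrays, against 8.21, 8.25 and 7.88 in siNT DMSO arrays. Under erastin it read 5.95, 5.91 and 6.30 in siTAZ arrays, against 7.95, 7.88 and 8.23 in siNT arrays. All 6 siTAZ arrays lay below all 6 siNT arrays, by more than the spread within any group. The groups averaged 6.002 ± 0.117 in siTAZ and 8.11 ± 0.21 in siNT cells with DMSO, and 6.06 ± 0.22 in siTAZ and 8.02 ± 0.19 in siNT cells with erastin (SD, n = 3).

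The log2 fold change of EMP1 was -2.11 ± 0.13 in DMSO (SE; 95% interval -2.40 to -1.83; limma adjusted p = 3.06e-07), which is 23.1% of the siNT signal. Under erastin it was -1.97 ± 0.13 (interval -2.25 to -1.68; limma adjusted p = 5.99e-07), or 25.6% of the siNT signal. In the order of all 19064 probe sets by log2 fold change, EMP1 stood 4th from the bottom in DMSO, after the WWTR1 probe sets, and 6th from the bottom under erastin. The siTAZ means were 0.17 and 0.22 above the background limit, with DMSO and with erastin, and the siNT means 2.28 and 2.19 above it. So close to the limit, the signal may understate the fall in either medium, and a difference in its size between the media could be missed. Leaving out any 1 of the 12 arrays gave -2.23 to -2.04 in DMSO and -2.09 to -1.86 under erastin.

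**Figure D1:**
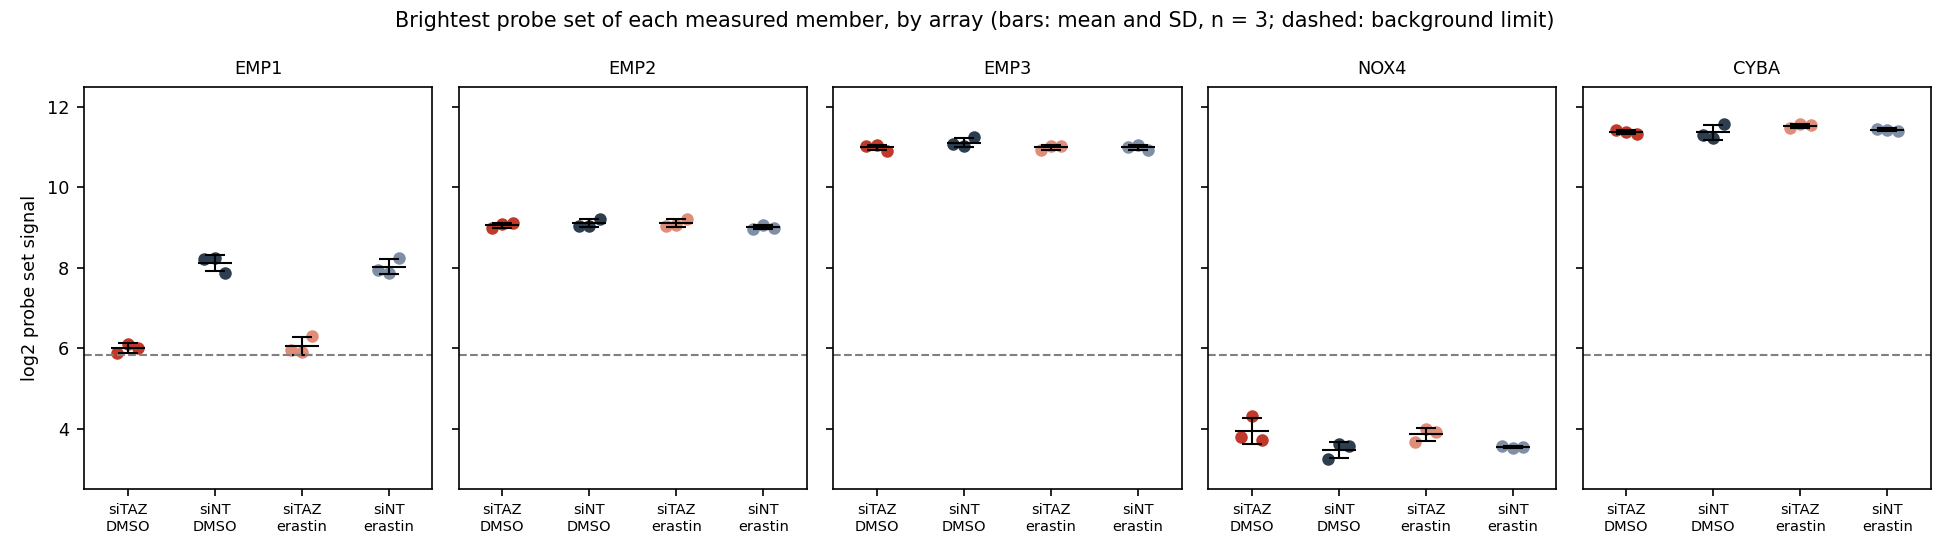
Log2 signal (vertical axis) of the brightest probe set of each of the 5 measured genes on each of 12 arrays, by group, with mean and SD bars (n = 3) and a dashed line at the background limit of 5.83. EMP1 lies just above the line in siTAZ cells and near 8 in siNT cells, NOX4 lies below the line in all 12 arrays, and EMP2, EMP3 and CYBA show no such separation by siRNA.

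Both other EMP1 probe sets are dimmer, and 1 of them was called as well. Probe set 201325_s_at read 5.33, 5.29 and 5.42 in siTAZ DMSO arrays, against 6.75, 6.77 and 6.47 in siNT DMSO arrays, and 5.19, 4.71 and 5.19 in siTAZ erastin arrays, against 6.40, 6.38 and 6.74 in siNT erastin arrays. Its siTAZ arrays were all near background and its siNT arrays all above the limit. Measured against the limit, it was at least 1.77-fold lower in siTAZ cells with DMSO and at least 1.59-fold lower under erastin. These folds were not tested. The limma test of the signals as read gave an adjusted p of 1.9e-05 in DMSO and 7.25e-06 under erastin. The dimmest, 213895_at, averaged between 3.83 and 4.02 in the 4 groups, near background throughout, and was not called (limma adjusted p of 0.348 and 0.518, DMSO and erastin). Of the 3 probe sets, 2 were therefore called lower in siTAZ cells in both media. The direction of 213895_at is not read, because it was near background in every group.

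**Figure D2:**
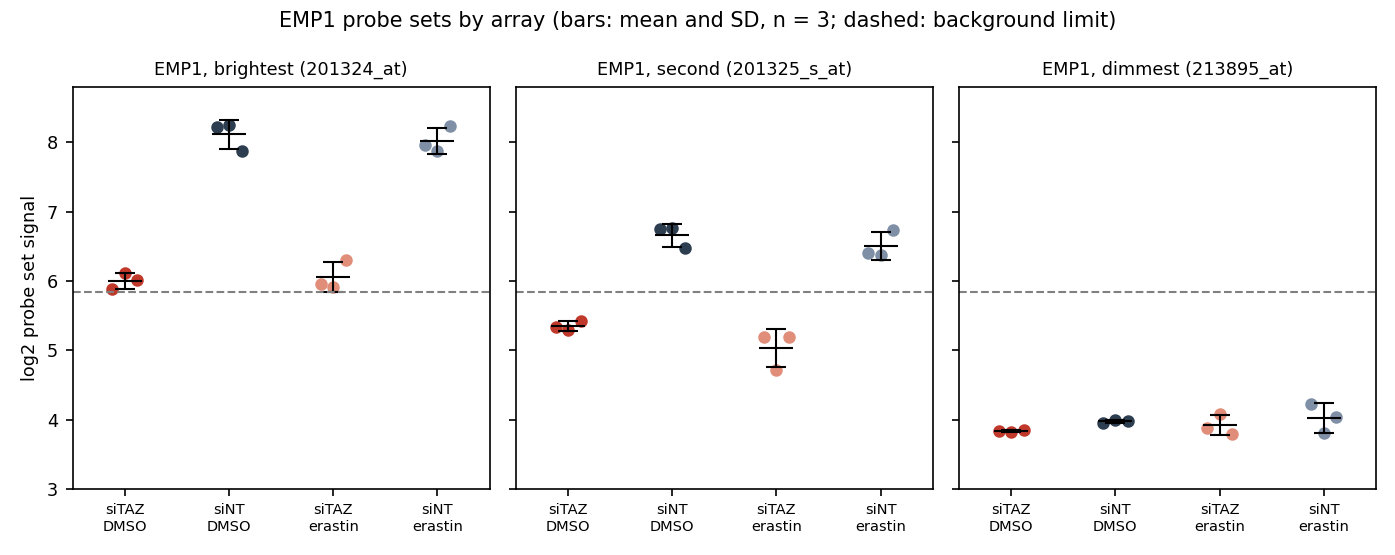
Log2 signal (vertical axis) of the 3 EMP1 probe sets by array in the 4 groups, with mean and SD bars (n = 3) and a dashed line at the background limit of 5.83. In 201324_at and 201325_s_at the siTAZ arrays lie below the siNT arrays in both media, and 213895_at stays near 4 in every group.

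Erastin itself shifted no EMP1 probe set enough for a call, in siTAZ or siNT cells. Its effect on 201324_at was 0.05 ± 0.13 in siTAZ cells (interval -0.23 to 0.34; limma adjusted p = 0.92) and -0.09 ± 0.13 in siNT cells (interval -0.38 to 0.19; adjusted p = 0.917). The difference between the siTAZ effects with and without erastin was 0.14 ± 0.19 (interval -0.26 to 0.55; limma adjusted p = 0.889). In the mean over both media, EMP1 differed by -2.04 ± 0.09 (limma adjusted p = 7.6e-09). For 201325_s_at, erastin changed the signal by -0.16 ± 0.14 in siNT cells (limma adjusted p = 0.828). In siTAZ cells its erastin arrays all lay below its DMSO arrays, near background and without a call (limma adjusted p = 0.529). Such separation was seen in 19.7% of all probe sets. Its interaction was negative, opposite in sign to that of 201324_at, and not called (limma adjusted p = 0.886).

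EMP2 and EMP3, the closest measured relatives of EMP1, did not follow it. EMP2 read 8.98, 9.09 and 9.10 in siTAZ DMSO arrays, against 9.04, 9.05 and 9.22 in siNT DMSO arrays, and 9.03, 9.06 and 9.22 in siTAZ erastin arrays, against 8.97, 9.07 and 9.00 in siNT erastin arrays. These values overlap in both media. The difference was -0.05 ± 0.07 in DMSO (interval -0.20 to 0.11; limma adjusted p = 0.728) and 0.09 ± 0.07 under erastin (interval -0.07 to 0.25; adjusted p = 0.436).

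EMP3 read 11.02, 11.04 and 10.91 in siTAZ DMSO arrays, against 11.07, 11.02 and 11.24 in siNT DMSO arrays, and 10.93, 11.03 and 11.04 in siTAZ erastin arrays, against 11.00, 11.05 and 10.93 in siNT erastin arrays. Again the groups overlap in both media. EMP3 differed by -0.12 ± 0.07 in DMSO (interval -0.27 to 0.03; limma adjusted p = 0.261) and by 0.01 ± 0.07 under erastin (interval -0.14 to 0.16; adjusted p = 0.955).

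The divergence within the family was tested on the difference between log2 signals within each array, which cancels what an array shares. EMP1 minus EMP2 averaged -3.05 in siTAZ and -0.99 in siNT arrays, a siTAZ minus siNT shift of -2.06 (two-sided exact permutation within medium, p = 0.005, adjusted p = 0.005 over the 2 pairs tested). EMP1 minus EMP3 averaged -4.97 in siTAZ and -2.98 in siNT arrays, a shift of -1.98 (exact permutation p = 0.005, adjusted p = 0.005). These are the smallest p the 400 arrangements can give. With EMP1 separated by siRNA in every array and EMP2 and EMP3 nearly flat, they restate the EMP1 fall and add no separate support. Only the shifts carry meaning, because levels of different probe sets are not comparable.

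**Figure D3:**
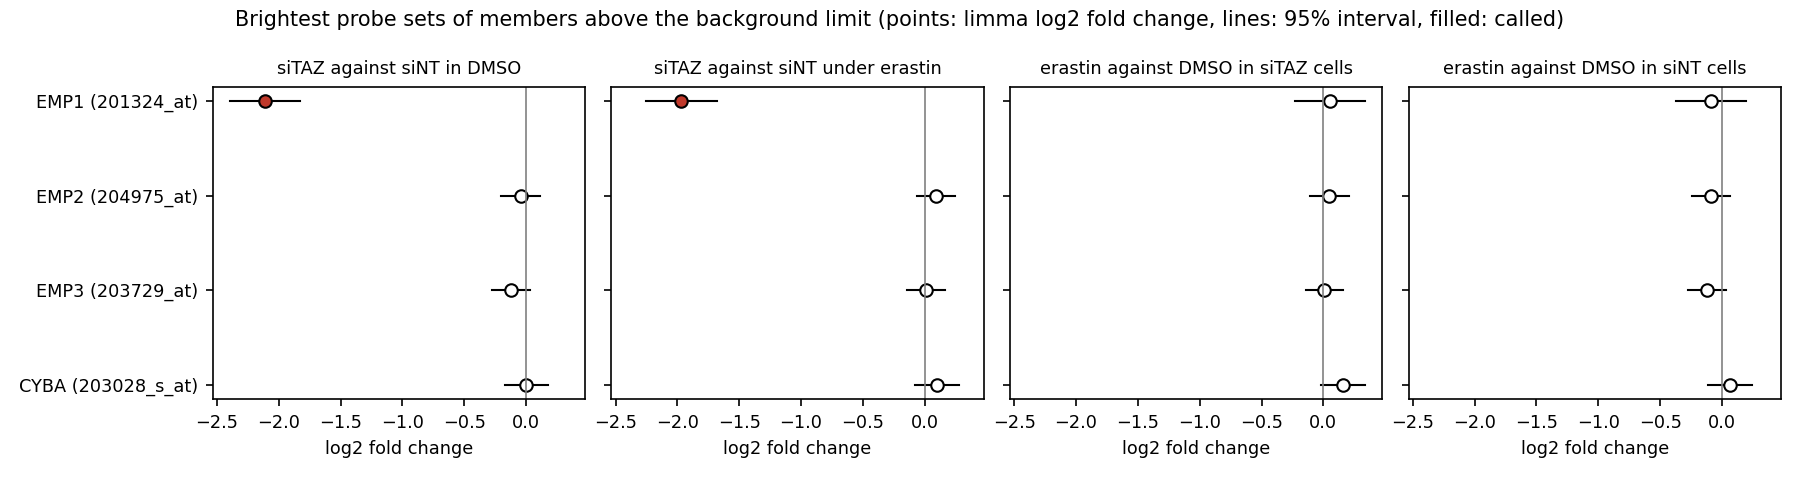
Log2 fold changes (horizontal axis) of the brightest probe sets of EMP1, EMP2, EMP3 and CYBA in the 4 comparisons, with 95% intervals from limma; filled points were called. EMP1 is near -2 for siTAZ against siNT in both media, and every other interval includes 0.

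NOX4 was near background in all 12 arrays, and no fall was detectable. Its single probe set read 3.80, 4.31 and 3.72 in siTAZ DMSO arrays, against 3.25, 3.61 and 3.57 in siNT DMSO arrays, and 3.68, 3.99 and 3.90 in siTAZ erastin arrays, against 3.56, 3.53 and 3.55 in siNT erastin arrays. The siTAZ arrays were higher without overlap in both media, yet the 12-array mean relative to the limit was -2.13, so no fold change is given. The group means were 3.94 ± 0.32 in siTAZ and 3.47 ± 0.20 in siNT cells with DMSO, and 3.86 ± 0.16 in siTAZ and 3.55 ± 0.02 in siNT cells with erastin (SD, n = 3).

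The NOX4 call was fragile. In DMSO the limma adjusted p was 0.0317 and under erastin 0.149; the mean over both media had 0.00936, which was 0.0635 with the actin covariate. The DMSO call was lost without siNT DMSO array 1 (adjusted p = 0.134), siNT DMSO array 3 (0.05), siTAZ DMSO array 2 (0.114), and in a fit of the compared groups alone (0.0633). Under erastin NOX4 was called without siTAZ DMSO array 2 (limma adjusted p = 0.0498) or with only the compared groups (0.0496). At this signal the arrays do not show how much NOX4 mRNA the cells hold, in any group. The erastin effect was not called in siTAZ cells (limma adjusted p = 0.878) or siNT cells (adjusted p = 0.949).

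CYBA, the partner of NOX4, was well above the limit and was not called in any comparison. It read 11.42, 11.37 and 11.32 in siTAZ DMSO arrays, against 11.29, 11.23 and 11.58 in siNT DMSO arrays, and 11.48, 11.56 and 11.54 in siTAZ erastin arrays, against 11.46, 11.44 and 11.39 in siNT erastin arrays. The DMSO groups overlap, whereas every siTAZ erastin array lay above every siNT erastin array. CYBA differed by 0.00 ± 0.08 in DMSO (interval -0.17 to 0.18; limma adjusted p = 0.99) and by 0.10 ± 0.08 under erastin (interval -0.08 to 0.28; adjusted p = 0.46).

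Counted over the 5 measured genes by brightest probe set, in DMSO EMP1 was called lower and NOX4 higher, 2 of 5, where 24.3% of all 19064 probe sets and 26.9% of all 11963 genes by their brightest probe set were called. Under erastin 1 of 5 (EMP1) was called, where 24.6% of probe sets and 26.4% of genes were. In the mean over both media 2 of 5 (EMP1, NOX4) were called, against 34.3% of probe sets and 36.6% of genes. Neither erastin comparison called a member: 0 of 5 in siTAZ cells, where 0.294% of all probe sets were called, and 0 of 5 in siNT cells, where 0.372% were. The test of different siTAZ effects in the media called 0% of probe sets, or 0 in limma, and limma with array weights called 4. Of the 19064 probe sets, 1163 passed at an unadjusted p under 0.05. Where nothing differs, a share of 0.05 passes on average. The median log2 change of the 5 was -0.05 in DMSO, against -0.01 over all genes, and 0.09 under erastin, against 0.01.

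Groups that do not overlap were common among all probe sets: 41.2% for siTAZ against siNT in DMSO and 36.2% under erastin, and for erastin against DMSO 19.7% in siTAZ and 13% in siNT cells. The non-overlap of the NOX4 and CYBA arrays is to be read against these shares.

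Family relatives beyond the members gave 1 called fall in DMSO and 2 under erastin among 6 measured of 12 listed PMP22 and claudin-like genes, with no rise; over all genes, by brightest probe set, 26.9% were called in DMSO and 26.4% under erastin, so these counts are not set apart from the background. TMEM47, a claudin-like protein of cell junctions, averaged 7.90 in siTAZ and 8.45 in siNT cells with DMSO, a change of -0.55 ± 0.09 (limma adjusted p = 0.000523), and 7.74 in siTAZ and 8.40 in siNT cells with erastin, a change of -0.66 ± 0.09 (adjusted p = 0.000135). PERP, a desmosome-associated p53 target, fell by 0.36 under erastin (limma adjusted p = 0.00365) and differed by -0.18 in DMSO without a call (adjusted p = 0.0994). The PERP call under erastin was lost with the actin covariate (limma adjusted p = 0.148), while TMEM47's held in every alternative of its brightest probe set. A dimmer TMEM47 probe set was called in DMSO (limma adjusted p = 0.0182) and not under erastin (adjusted p = 0.0989). The other 4 had no call, and 3 of the 6 were near background.

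The other NADPH oxidase catalytic subunits were mostly near background. Of NOX1, CYBB, NOX3, NOX5, DUOX1 and DUOX2, all 6 were measured and 0 were called in either medium by limma, against 26.9% of all genes in DMSO and 26.4% under erastin. Only NOX5, a calcium-activated oxidase, lay above the limit, with a 12-array mean of 6.39; it differed by 0.03 ± 0.14 in DMSO and 0.10 ± 0.14 under erastin. Among 7 measured of 14 partner and regulatory genes, 1 was called in DMSO and 0 under erastin, beside the same shares of all genes. It was RAC1, the small GTPase that activates several NADPH oxidases, which fell by 0.17 in DMSO (limma adjusted p = 0.0234) and differed by -0.15 under erastin (adjusted p = 0.0547). The RAC1 call was lost without any of siNT DMSO arrays 1 and 2 or siTAZ DMSO arrays 1 and 3 (limma adjusted p of 0.0656 to 0.0857). Under erastin RAC1 passed with other settings, among them each array centred on its median (limma adjusted p = 0.0182). CYBC1, needed for assembly of the phagocyte oxidase, differed by 0.21 ± 0.08 in DMSO (limma adjusted p = 0.0836).

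Genes that remove superoxide and peroxide were called in both directions, as were all genes. Of 13 measured of 16 listed, 3 rose and 1 fell in DMSO, and 4 rose and 2 fell under erastin, with median log2 changes of 0.07 in DMSO and 0.10 under erastin. Over all genes 26.9% were called in DMSO (1661 rose, 1557 fell; median -0.01) and 26.4% under erastin (1751 rose, 1408 fell; median 0.01). GPX7, an endoplasmic reticulum peroxidase, had the largest change: it averaged 6.87 in siTAZ and 6.25 in siNT cells with DMSO (0.62 ± 0.10; limma adjusted p = 0.000427) and 7.01 in siTAZ and 6.002 in siNT cells with erastin (1.01 ± 0.10; adjusted p = 9.87e-06). PRDX1, a cytosolic peroxiredoxin, averaged 13.26 in siTAZ and 13.58 in siNT cells with DMSO (-0.32 ± 0.05; limma adjusted p = 0.000355) and 13.30 in siTAZ and 13.56 in siNT cells with erastin (-0.26 ± 0.05; adjusted p = 0.00149). GPX4, which reduces lipid hydroperoxides and holds back ferroptosis, rose by 0.24 ± 0.08 in DMSO (limma adjusted p = 0.0347) and by 0.39 ± 0.08 under erastin (adjusted p = 0.00238). Catalase (CAT) rose by 0.32 ± 0.05 in DMSO and 0.19 in erastin, PRDX4 by 0.15 under erastin, and the mitochondrial peroxiredoxin PRDX3 fell by 0.26 under erastin.

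Several of these calls were lost with 1 array left out or in another fit. The GPX4 call in DMSO was lost without any of siNT DMSO arrays 1 and 2 or any siTAZ DMSO array (limma adjusted p of 0.0718 to 0.14), and with each array centred on its median (0.092). The CAT call under erastin was lost without any of siNT erastin arrays 1 and 2 or siTAZ erastin arrays 1 and 3, each of which left 2 rises in the list under erastin. PRDX4 lost its call without any of 11 of the 12 arrays, while its change stayed at 0.13 to 0.16. The actin covariate ended the erastin calls of PRDX3 and GPX4 (limma adjusted p of 0.189 and 0.101). GPX7 and PRDX1 were called in both media under every array left out.

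Genes of proteins linked to PMP22-family members, among them integrins, showed small changes in both directions. Of 13 measured of 14 listed, 5 rose (ITGA6, ITGB4, ITGAV, ITGB5, CANX) and 1 fell (PTK2) in DMSO, and 3 rose (ITGA6, ITGAV, CANX) and 3 fell (ITGB3, SRC, CAV1) under erastin, or 6 of 13 in each medium beside 26.9% and 26.4% of all genes. No test of that difference was made, and the counts changed with 1 array left out. ITGAV, the integrin alpha V chain, rose by 0.30 ± 0.07 in DMSO (limma adjusted p = 0.00479), and that call held with each array left out; its call under erastin was lost with centred arrays (limma adjusted p = 0.122). SRC, a kinase of adhesion sites, fell by 0.26 under erastin (limma adjusted p = 0.00514). Its call was lost with the mean of its probe sets (limma adjusted p = 0.138). ITGB4 was near background in both DMSO groups, so only its limma adjusted p of 0.0425 is given. The number that rose in DMSO was as low as 1 without 1 of siNT DMSO arrays 1 and 3 or a siTAZ DMSO array, and under erastin as low as 0 without 1 of siNT erastin arrays 1 and 2 or siTAZ erastin arrays 1 and 2. P2RX7, a channel reported to bind the EMP proteins, was near background.

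**Figure D4:**
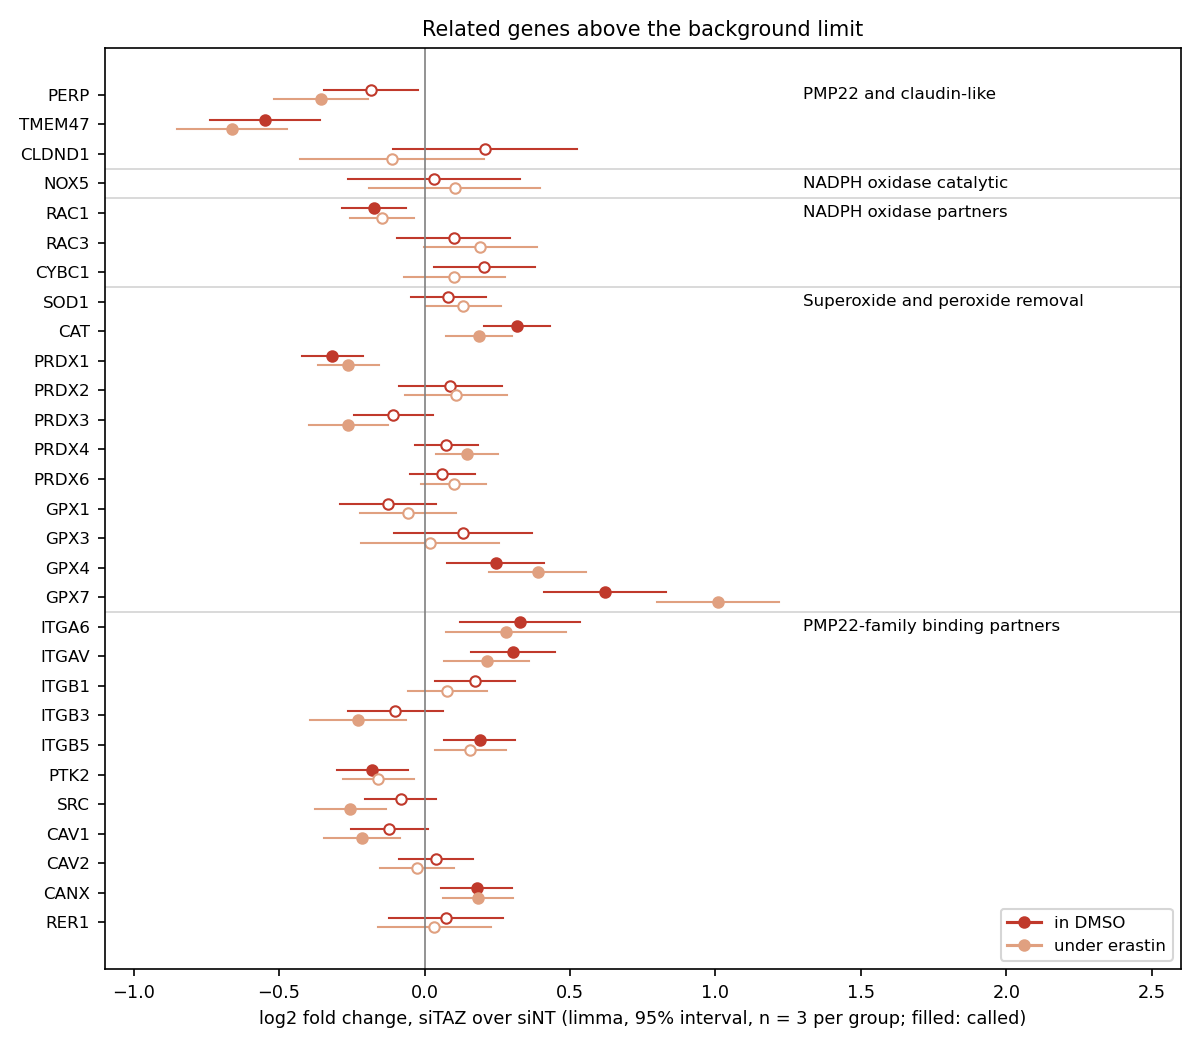
Log2 fold change of siTAZ over siNT (horizontal axis, 95% interval, limma, n = 3 per group) in DMSO and under erastin for the listed related genes above the background limit; filled points were called. TMEM47 and PRDX1 lie left of 0 and GPX7 right of 0 in both media, and most of the others lie within 0.4 of 0.

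TEAD proteins bring TAZ to DNA. Of WWTR1, YAP1, TEAD1, TEAD3 and TEAD4, 2 rose in DMSO (TEAD1, TEAD4) and 3 under erastin (TEAD1, TEAD3, TEAD4), and WWTR1 fell in both. WWTR1 is the target of the siRNA, so its fall is not a finding about the list. Over all genes 26.9% were called in DMSO and 26.4% under erastin, and no test of the counts against these shares was made. The list held 6 genes, of which TEAD2 was not measured. TEAD1 rose by 0.59 ± 0.10 in DMSO (limma adjusted p = 0.000758) and 0.73 ± 0.10 under erastin (adjusted p = 0.000165). TEAD4 rose by 0.21 ± 0.06 in DMSO (limma adjusted p = 0.0174) and 0.19 ± 0.06 under erastin (adjusted p = 0.0289), and TEAD3 rose by 0.20 ± 0.07 under erastin (adjusted p = 0.0387). The TEAD4 call in DMSO was lost without siNT DMSO array 1 or siTAZ DMSO array 2 or 3, and under erastin without any siNT erastin array or siTAZ erastin array 2 or 3. A dimmer TEAD4 probe set also read higher in siTAZ cells. It averaged 8.285 in siTAZ and 8.003 in siNT cells with DMSO, and 8.162 in siTAZ and 7.878 in siNT cells with erastin. The TEAD3 call was lost without siNT erastin array 2 or 3, siTAZ DMSO array 3, or siTAZ erastin array 1 or 2. The bases before the EMP1 start are printed because EMP1 was the member that moved; the capitals mark the letters TGAGTCA, an AP-1 site's letters, 175 bases before the start (RefSeq, GRCh38.p14, chr12:13196476-13196725, plus strand).
EMP1 upstream: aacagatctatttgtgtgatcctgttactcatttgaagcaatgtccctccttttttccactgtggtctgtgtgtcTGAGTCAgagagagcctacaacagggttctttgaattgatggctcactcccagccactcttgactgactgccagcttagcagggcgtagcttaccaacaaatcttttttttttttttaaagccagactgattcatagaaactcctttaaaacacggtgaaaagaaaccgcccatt
The TEAD core letters GGAATG (or CATTCC on the other strand) were in 0 of 8 upstream windows of 250 bases from the 5 measured genes, and in 11.9% of all 35116 promoter windows. The letters TGAGTCA (or TGACTCA) were in 1 of the 8, that of EMP1, and in 4.20% of all; they were searched for after the EMP1 window had been read. A match is a description of letters, and none says that no factor binds elsewhere.

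Genes whose pattern over the 12 arrays was most like that of EMP1 were ADM, SCG5, NXPE3, STX2 and EVI2A, in order of distance. Distance is the root mean square difference between log2 signals, each centred on its own 12-array mean, over 7709 candidate genes; it was 0.143 for ADM, 0.204 for SCG5, 0.261 for NXPE3, 0.270 for STX2 and 0.283 for EVI2A. WWTR1 itself was 0.526 away. The distance also counts the size of a change, and WWTR1 fell further than EMP1. In the mean over both media WWTR1 changed by -3.03 and EMP1 by -2.04. ADM, the gene of the vasodilator peptide adrenomedullin, averaged 8.09 in siTAZ and 9.96 in siNT cells with DMSO, and 8.22 in siTAZ and 10.04 in siNT cells with erastin. SCG5, a secretory chaperone of prohormone processing, averaged 7.96 in siTAZ and 9.92 in siNT cells with DMSO, and 8.24 in siTAZ and 9.93 in siNT cells with erastin. ADM, SCG5, NXPE3 and STX2 were called lower in siTAZ cells in both media by limma, with log2 changes of -1.96 to -1.53. A second STX2 probe set changed by only -0.51 in DMSO and was not called under erastin (limma adjusted p = 0.156). EVI2A averaged 5.45, near background, in siTAZ cells with DMSO, against 7.31 in siNT cells, and 5.96 in siTAZ and 7.62 in siNT cells with erastin. It was the neighbour with a called erastin rise, in siTAZ cells (limma adjusted p = 0.0416), from a mean near background. In siNT cells its erastin change was 0.31, without a call (limma adjusted p = 0.287). The siTAZ effects on EVI2A in the 2 media were not called different (limma adjusted p = 0.804). These genes were picked for their likeness to EMP1, so the values are a description.

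**Figure D5:**
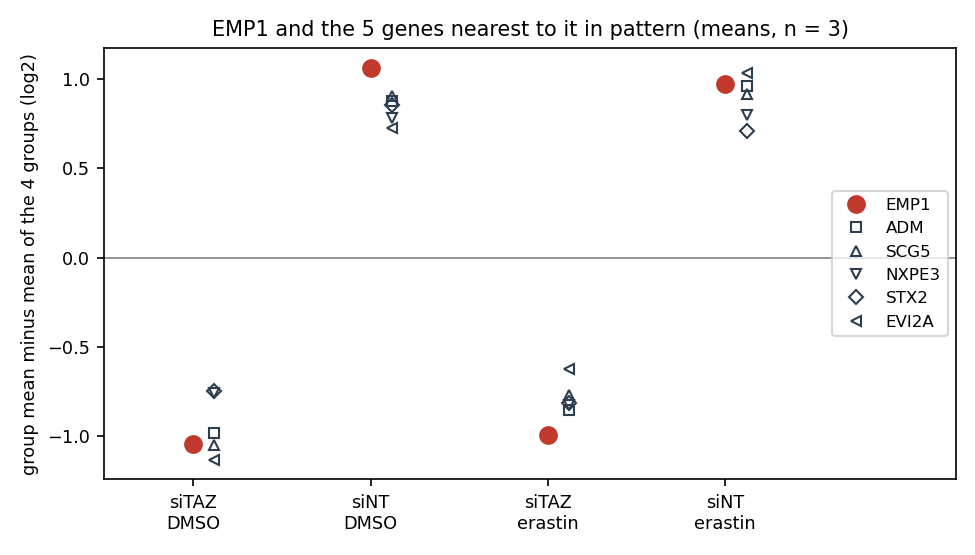
Group means (n = 3), each minus the mean of the gene's 4 group means (log2, vertical axis), for EMP1 and the 5 genes nearest to it in pattern. All 6 genes lie below 0 in siTAZ cells and above 0 in siNT cells, in DMSO and erastin alike; EVI2A in siTAZ cells with DMSO is near background.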

How the data were processed

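The authors deposited 1 table of log2 signals per probe set, used here as given. Per the submitters' processing notes, RMA in Affymetrix Expression Console made them; the sources used here give no version and no genome build. Of 22277 probe sets, 62 controls, 1043 annotated to several genes and 2108 with no listed gene were left out. Groups came from the sample titles, and array medians were 6.48 to 6.54.

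All 12 arrays entered 1 limma fit (3.58.1, R 4.3.3) with a mean per group and moderated variances, on each of 19064 probe sets. A gene with several probe sets was counted by the one with the highest 12-array mean. On simulated data with 200 changed probe sets of 19064, the siTAZ comparison in DMSO recovered 69% of changes of 0.5 and 98% of changes of 1 (log2), with 4.83% and 8.84% of calls false. The simulation changed far fewer probe sets than the 24.3% called in the data and drew its noise independently. Its rates check the code and need not hold for the data. Named are the members, the check genes, called members of the context lists and the 5 genes nearest to EMP1 in pattern. The members and lists were chosen with earlier results of these data known.

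Alternatives covered scaling, filters on dim probe sets, the choice of probe set, variance moderation, array weights, the samples in the fit, the replicate number, actin signal and each array left out. Same-numbered arrays of different groups deviated together by a correlation of -0.432 to 0.359 over 18 pairs, so the numbers were not taken to pair arrays.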

Additional observations from a re-analysis of the deposited data

How the results depend on the processing

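EMP1 (201324_at) kept its direction and its call in all alternatives tried for siTAZ against siNT, with values of -2.16 to -1.19 in DMSO and -2.01 to -1.18 under erastin, the smallest with the mean of all its probe sets; EMP2, EMP3 and CYBA were never called there. With the replicate number as a block, EMP1 was at -2.11 (limma adjusted p = 5.02e-06) in DMSO. Members called moved only through NOX4: 1 in DMSO with either filter on dim probe sets (which leave NOX4 out) or with only the groups compared, and 1 to 2 with 1 array left out; under erastin 2 with only the groups compared and 1 to 2 with 1 array left out; in the mean over media 1 with either filter or with the actin covariate. Near background were 10 of 28 probe set and group values, or 8 with the 75th percentile limit. Over all probe sets, the erastin comparison of siTAZ and siNT had 2676 calls with block and actin together, against 4689. Erastin in siTAZ cells called 56, with 140 under the 50th percentile filter, 155 with trend and robust moderation, 132 with array weights and 33 to 78 with 1 array left out. Erastin in siNT cells called 71, with 125 and 213 under the 25th and 50th percentile filters, 182 with trend, 215 with weights, 37 with the block, 38 with block and actin, 12 with only the groups compared and 27 to 57 with 1 array left out. The interaction called 0, with 3 after quantile normalisation, 3 under the 50th percentile filter, 10 with trend, 4 with weights and 0 to 1 with 1 array left out. The mean over media called 6545 probe sets, and 4354 of fewer features with the mean of each gene's probe sets. The cause of these shifts was not tested.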
